A study of Mus musculus with 20 samples.

Results

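The cytosolic ribosomal protein genes encode the proteins of the small (40S) and large (60S) ribosomal subunits that work in the cytosol. Members were taken by gene symbol (Rps or Rpl followed by a number and a few paralogue suffixes, the stalk genes Rplp0, Rplp1 and Rplp2, and Rpsa), which gave 88 of the 54446 gene IDs in each deposited table, 34 of the small and 54 of the large subunit. GENCODE M21 annotated 84 of the 88 as protein coding and 4 (Rps4l, Rps12l1, Rpl32l and Rpl6l) as processed pseudogenes, although the name rule was meant to leave pseudogenes out.

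Bulk RNA sequencing was available for 15 libraries, 3 labelled biological replicates for each of 5 groups of structures grown from F1G4 mouse embryonic stem cells that carried the T::H2B-mCherry and Sox2::H2B-Venus reporters. Every group, the 96 h group included, had been aggregated for 48 h and then pulsed with 3 µM CHIR99021, an activator of WNT signalling. The group called 96h held 10 pooled precursors per library, and the 4 groups collected at 120 h held 6 pooled structures per library: gastruloids grown without Matrigel (Gastruloid), trunk-like structures in Matrigel, a basement membrane gel (TLSMG), structures in Matrigel with CHIR (TLSMGC), and structures in Matrigel with CHIR and the BMP receptor inhibitor LDN (TLSMGCL). Structures were picked for an asymmetric pole and all came from 1 cell line, so the libraries describe picked structures of that line; 5 single-cell samples and the NanoString measurements were not analysed here.

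Ribosomal proteins are made in near-equal numbers, because each ribosome carries a single copy of most of them, and their mRNAs are among the most abundant of a growing cell. Most of these mRNAs begin with a C followed by a run of C and T (the 5′ terminal oligopyrimidine, or TOP, element), through which mTOR signalling and the RNA-binding protein LARP1 control their translation. Loss of single members in mice gives tissue-specific defects, of the axial skeleton among others, so that their levels in somite and neural tube models have been of interest.

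The sequences around annotated transcript starts are shown because a C/T run at the start is the sequence feature these genes are best known for and one that the name rule did not use. RefSeq promoter sequences (build GRCm38.p6, 1 annotated start per gene) were matched for 65 of the 88 members. In the 41 bases centred on the start (20 on each side), 30 of 65 members (46.2%) held an unbroken run of at least 8 C or T on the coding strand, against 4406 of 27025 genes of the whole table (16.3%) and 15.6% of the 9545 tested genes that were no members. The median longest run was 7 bases in members and 5 in all genes, and the base at the annotated start was C in 22 members (33.8%) against 16.2% of all genes. Each window below gives 30 bases before and 20 from the annotated start, 5′ to 3′ on the coding strand, with the longest C/T run near the start in capitals. The first 4 members were chosen to show a long run that begins 1 to 3 bases before the annotated start. Most of the 30 members with a run of at least 8 do not share this arrangement.
Rps6, chr4:86857348-86857397, minus strand: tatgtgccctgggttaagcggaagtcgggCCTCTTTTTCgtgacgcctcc
Rps18, chr17:33955646-33955695, minus strand: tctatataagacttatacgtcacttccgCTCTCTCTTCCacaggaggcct
Rpl28, chr7:4792935-4792984, plus strand: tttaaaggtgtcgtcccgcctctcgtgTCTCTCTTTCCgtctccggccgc
Rpl38, chr11:114668550-114668599, plus strand: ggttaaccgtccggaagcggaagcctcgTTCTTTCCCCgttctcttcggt
The next 4 are the paralogue pairs Rps27 and Rps27l and Rpl22 and Rpl22l1, whose levels are compared further on.
Rps27, chr3:90213629-90213678, minus strand: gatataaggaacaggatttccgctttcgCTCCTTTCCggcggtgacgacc
Rps27l, chr9:66946056-66946105, plus strand: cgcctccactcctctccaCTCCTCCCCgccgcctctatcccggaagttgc
Rpl22, chr4:152325696-152325745, plus strand: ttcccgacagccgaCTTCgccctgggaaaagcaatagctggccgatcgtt
Rpl22l1, chr3:28805478-28805527, plus strand: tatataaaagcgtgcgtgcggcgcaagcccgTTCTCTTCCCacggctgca
Rps27 has a run across its start, whereas the run of Rps27l ends before it. Rpl22l1 has a run of 10 bases just inside the annotated transcript, and the longest run of Rpl22 has 4 bases and lies upstream. The 6-base strings CTCTTT and CTTTCC, which can overlap each other within 1 C/T run, were present in the same 41 bases of 8 (12.3%) and 10 (15.4%) members on the coding strand, against 1.5% and 2.0% of all genes. On the other strand they were present in 1.5% and 0.0% of members, against 1.4% and 1.7% of all genes.

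Values are TPM, which correct for transcript length and add up to 1000000 in every library, so that they measure shares of the mRNA and not amounts per cell. Relative depth, read as coverage per FPKM, ran from 3.12 to 6.84 over the 15 libraries, a 2.19-fold range. Median-of-ratios size factors computed on the TPM were 1.08 to 1.14 in the 3 TLSMG libraries and 0.902 to 1.01 in the other 12. In comparisons with TLSMG this scaling moved the median gene by more than 0.1 on the log2 scale, so member counts are given on both scales. Mitochondrially encoded genes took 0.391% of TPM in Gastruloid, 0.740% in 96h, 0.764% in TLSMGCL, 0.924% in TLSMGC and 1.19% in TLSMG (means).

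The members together took between 14.7% and 20.4% of all TPM. Their share was 17.2%, 17.4% and 17.8% in the 96h libraries and 18.2%, 18.6% and 17.6% in Gastruloid. It was 15.1%, 14.7% and 15.8% in TLSMG. It was 18.5%, 18.2% and 20.4% in TLSMGC and 17.8%, 20.0% and 18.1% in TLSMGCL. The 3 TLSMG libraries were the 3 lowest of the 15 and did not overlap any other group, whereas the ranges of Gastruloid, TLSMGC and TLSMGCL overlapped one another and that of 96h overlapped Gastruloid alone. As means the share was 17.5 ± 0.294% in 96h, 18.1 ± 0.499% in Gastruloid, 15.2 ± 0.574% in TLSMG, 19.0 ± 1.19% in TLSMGC and 18.6 ± 1.17% in TLSMGCL (SD, 3 libraries each). In bulk samples, fewer cells of a type with many of these mRNAs and less of these mRNAs per cell cannot be told apart.

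**Figure D1:**
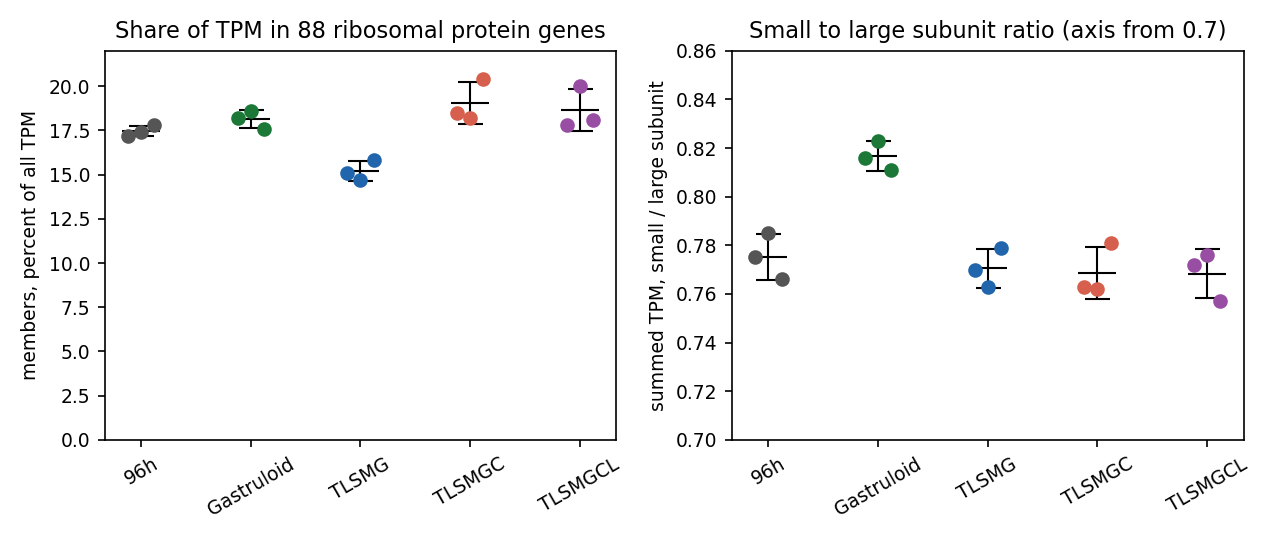
Left, the share of TPM in the 88 ribosomal protein genes (percent, y axis) in each library of the 5 groups (x axis), with the group mean and SD as lines; the 3 TLSMG libraries sit between 14.7% and 15.8%, under all others. Right, the ratio of summed small to summed large subunit TPM on an axis that starts at 0.7; the 3 Gastruloid libraries sit between 0.811 and 0.823, above all others.

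TLSMG was lowest for both subunits. Small subunit members took 6.61 ± 0.290% of TPM in TLSMG and 7.63 to 8.27% in the other groups (means), and large subunit members 8.57 ± 0.284% and 9.84 to 10.8%. The ratio of small to large subunit TPM separated another group. It was 0.816, 0.823 and 0.811 in Gastruloid and between 0.757 and 0.785 in the other 12 libraries. A single small subunit member, Rps14, entered this ratio with a mean of 5765 TPM in Gastruloid and 3544 in 96h, and the ratio without it was not computed. The median log2 difference of Gastruloid minus 96h, as deposited, was 0.05 over small and 0.02 over large subunit members. The 297 ribosomal protein pseudogenes listed with the ending -ps, whose reads can be hard to separate from those of their parent genes, took 1.82% in TLSMG and 1.93 to 2.22% elsewhere (means).

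Differences per gene were tested with limma on log2(TPM + 1) over the 14290 genes with a mean of at least 1 TPM, and a gene is called higher or lower below at a Benjamini-Hochberg adjusted p under 0.05 over all of them. Of the members, 85 were tested and 3 (Rpl3l, Rpl10l and Rpl39l) were under the minimum. The 7 comparisons share libraries (96h enters 4 of them and TLSMG 3), so their counts are not independent.

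In TLSMG against Gastruloid, structures of the same age with and without Matrigel, 52 of 85 members were lower and 1, Rpl22l1, was higher. Of all genes tested, 7.87% were lower and 31.5% higher. The median log2 difference was -0.24 over members and 0.13 over all genes. After median-of-ratios scaling 66 members were lower and 1 higher, beside 18.1% and 19.3% of all genes, with medians of -0.41 and -0.02. The small subunit had 23 of 34 members lower and the large subunit 29 of 51.

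In TLSMG against 96h, 37 members were lower and 3 higher (Rpl22l1, Rpl39 and Rpl30), beside 12.5% and 33.5% of all genes. The member median was -0.17 and the median of all genes 0.14. After median-of-ratios scaling 62 were lower and 1, Rpl22l1, was higher, beside 23.4% and 22% of all genes, and the member median was -0.35. Rpl30 changed direction between the scales, at 0.12 (adjusted p = 0.0328) as deposited and -0.05 (adjusted p = 0.429) after scaling.

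TLSMGC and TLSMG were grown in Matrigel with and without added CHIR. In TLSMGC against TLSMG 68 members were higher and none was lower, beside 10.4% of all genes higher and 30.5% lower. The member median was 0.30, against -0.16 for all genes. After median-of-ratios scaling 77 were higher and none lower, beside 19.2% and 18% of all genes, with a member median of 0.47. The lowest estimate of a member on that scale was 0.08, for Rps4l. On the TPM as deposited 3 members (Rps4l, Rpl7l1 and Rps25) had estimates below 0, none of them called.

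**Figure D2:**
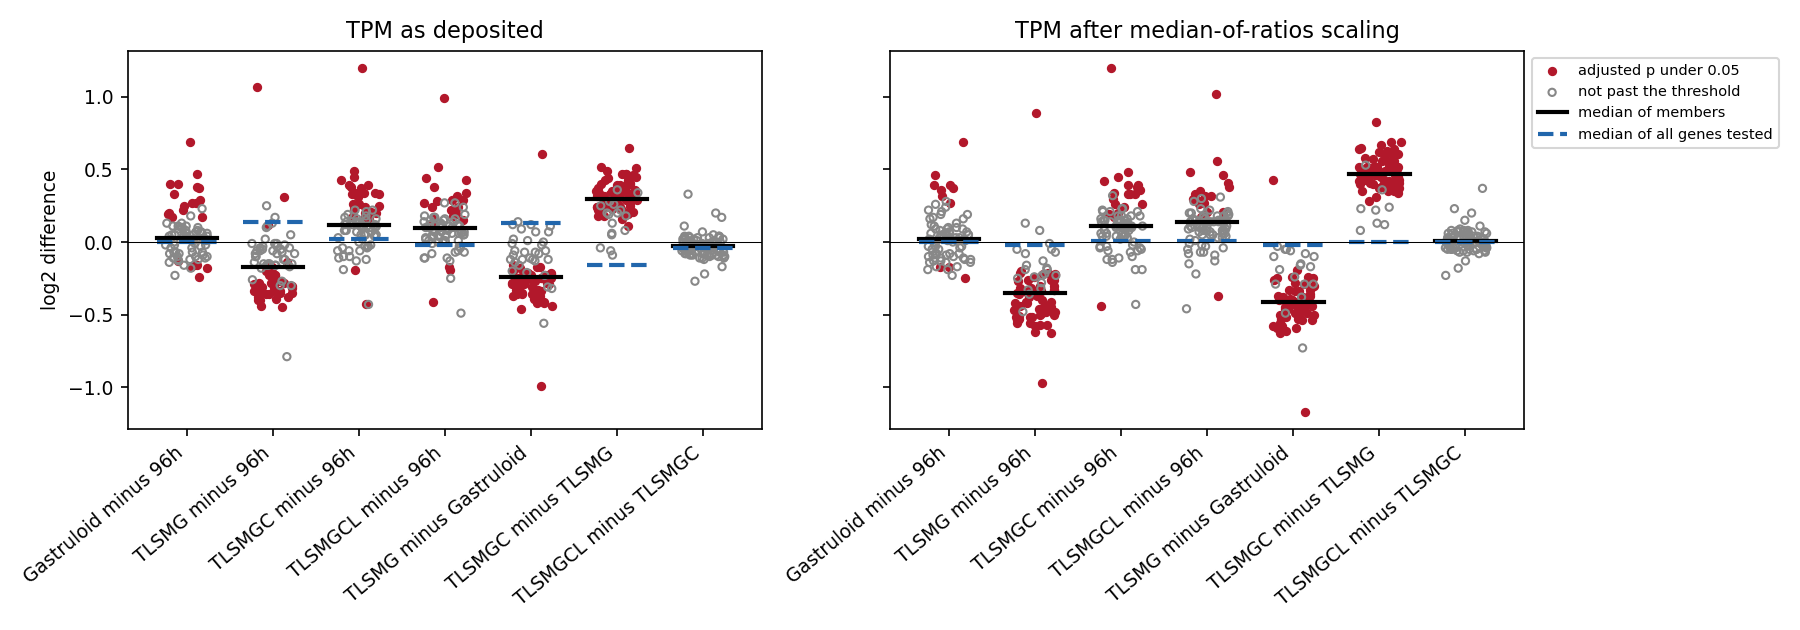
Log2 difference (y axis) of each of the 85 members tested in the 7 comparisons (x axis), on TPM as deposited (left) and after median-of-ratios scaling (right). Filled points passed the threshold; the solid line is the member median and the dashed line the median of all 14290 genes, and in the 3 comparisons with TLSMG the member median lies on the far side of 0 from the median of all genes as deposited.

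Against 96h, the groups other than TLSMG had fewer members past the threshold. In Gastruloid 16 members were higher and 6 lower, beside 20.8% and 20.5% of all genes, with a member median of 0.03. After median-of-ratios scaling the counts were 8 and 3, beside 20.6% and 22.6%. With a further correction for transcript GC content and length the median turned to -0.08, with 5 higher and 24 lower beside 20.6% and 24.3% of all genes, so the direction of the member median in this comparison depended on the correction.

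In TLSMGC 28 members were higher than in 96h and 2 (Rps4l and Rps27l) lower, beside 20.6% and 20.1% of all genes, and the member median was 0.12. After median-of-ratios scaling 19 were higher and 1, Rps4l, was lower, beside 21.1% and 21.2%. In TLSMGCL 19 members were higher and 3 (Rps4l, Rps27l and Rpsa) lower, beside 17.4% and 22.1%, and the member median was 0.10. After scaling the counts were 17 and 1, beside 20.2% and 20.8%. As a share of members, higher calls in TLSMGC were above the background as deposited and near it after scaling, those in TLSMGCL were nearer to it on both scales, and lower calls were well under it in both groups. With the GC and length correction 32 were higher and 3 lower in TLSMGC, beside 24% and 21.3% of all genes, and 25 and 4 in TLSMGCL, beside 22.9% and 21.3%, so higher calls were above the background there.

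Between TLSMGCL and TLSMGC, which differ by LDN, limma called no member in either direction, beside 0.406% of all genes higher and 0.777% lower. Without adjustment 3 of 85 members had a p under 0.05, and after median-of-ratios scaling 1 did, again with 0 called, beside 0.728% of all genes higher and 0.707% lower. The member median was -0.03 and the lowest member estimate was -0.27, for Rpl5 (adjusted p = 0.312). Over the 5 groups together, the moderated F test called 74 of 85 members, beside 73.5% of all genes, and 80 after median-of-ratios scaling, beside 72.7%.

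Dividing each library by the summed TPM of the members, an alternative added after the values were seen, removes the change they share and shows how they moved among themselves. On this scale 22 members were higher and 9 lower in TLSMG against Gastruloid (Rpl22l1 at the top, Rps14 at the bottom), beside 56.3% and 1.93% of all genes. In TLSMG against 96h 22 were higher and 15 lower, beside 51% and 6.66%, and in TLSMGC against TLSMG 10 were higher and 18 lower, beside 2.87% and 64%. Against 96h, 16 were higher and 19 lower in Gastruloid (beside 16% and 20%), 16 and 16 in TLSMGC (12.2% and 25.2%), and 15 and 15 in TLSMGCL (11.4% and 25.3%). No member was called between TLSMGCL and TLSMGC (0.217% and 0.259%), and the F test called 58 of 85, beside 83.2% of all genes.

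Values that moved with the groups stood beside the low share in TLSMG. The 9 endothelial marker genes (Kdr, Cdh5, Etv2 and others, none at 0 in every library) summed to 267 to 324 TPM in TLSMG, against 34.6 to 45.8 in Gastruloid, 25.1 to 84.5 in TLSMGC, 12.8 to 21.2 in TLSMGCL and 10.1 to 14.8 in 96h. Of these 9, 8 were higher in TLSMG than in Gastruloid, beside 31.5% of all genes. Across 14224 genes, the log2 difference of TLSMG minus Gastruloid correlated with transcript GC content at r = -0.42 and with length at r = 0.35, a description over genes that share their libraries. The members were shorter than the genes tested as a whole (median transcript length 910 against 2755 nt) and close in GC content (51.6% against 50.3%). With the GC and length correction 43 members were still lower and 5 higher in that comparison, beside 9.81% and 10.7% of all genes, with a median of -0.16. In TLSMG against 96h 62 were lower and 2 higher, beside 24.9% and 20.5%, and in TLSMGC against TLSMG 77 were higher and none lower, beside 22.3% and 16.7%. The part of endothelial cells and of mitochondrial transcripts in the result was not tested; without the mitochondrially encoded genes the share was 14.8 to 16.0% in TLSMG and 17.3 to 20.5% in the other libraries.

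Among small subunit members, Rps14, which lies in the platform of the 40S subunit and is haploinsufficient in a human anaemia, differed most. Its levels were 3527, 3548 and 3555 TPM in 96h, 6436, 5835 and 5023 in Gastruloid, and 2936, 2815 and 2887 in TLSMG. They were 3479.7, 3933 and 5135 in TLSMGC and 3532, 4771 and 3571 in TLSMGCL. Gastruloid was above 96h and TLSMG without overlap, and TLSMG was the lowest group. TLSMGC and TLSMGCL spread from just under the 96h level to just above the lowest Gastruloid library. Its log2 difference was 0.69 ± 0.14 (SE, adjusted p = 0.00115) in Gastruloid against 96h, -0.99 ± 0.14 (adjusted p = 0.00023) in TLSMG against Gastruloid, and 0.52 ± 0.14 (adjusted p = 0.00817) in TLSMGC against TLSMG. The direction and call of these 3 differences were the same after median-of-ratios scaling, at 0.69, -1.17 and 0.69.

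Rps18, a protein of the 40S head, stood at 3521, 3504 and 3320 TPM in Gastruloid and at 2499, 2453 and 2583 in TLSMG. The TLSMG libraries were also under the 96h libraries, at 3191, 3277 and 3343, with no overlap. The difference of TLSMG from Gastruloid was -0.46 ± 0.08 (adjusted p = 0.000948). Rps2 and Rps15, 2 of the 5 most abundant members, were also lower in that contrast, at -0.24 and -0.42 (adjusted p = 0.00853 and 0.000662). Rps2 had a mean of 3790 TPM in TLSMG against 4479 in Gastruloid, and Rps15 a mean of 3525 against 4700. In Gastruloid against 96h Rps15 was higher (0.22, adjusted p = 0.0226, 0.103 after median-of-ratios scaling) and Rps2 was not called (-0.12, adjusted p = 0.154). The difference between these genes was not tested.

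Rps7, a small subunit protein whose mutation in mice gives skeletal and nervous system defects, had 1962, 2011 and 1848 TPM in 96h and 2462, 2803 and 2423 in Gastruloid. In TLSMG it had 2024, 1772 and 2005 TPM, so that TLSMG overlapped 96h and lay under Gastruloid. It was higher than in 96h in Gastruloid (0.40, adjusted p = 0.001), TLSMGC (0.39, adjusted p = 0.00117) and TLSMGCL (0.28, adjusted p = 0.00972), and these 3 calls held after median-of-ratios scaling. Against 96h it did not differ detectably in TLSMG (-0.01, adjusted p = 0.953).

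In the large subunit, Rpl10a, part of the L1 stalk that guides tRNA out of the ribosome, had 1634, 1569 and 1547 TPM in 96h and 1227, 945.5 and 1363 in TLSMG. In TLSMGC it had 1908, 1914 and 1680.1 TPM. TLSMG was under both groups without overlap, with replicate 2 well under the other two libraries. The difference was -0.44 ± 0.10 (adjusted p = 0.00358) for TLSMG against 96h and 0.65 ± 0.10 (adjusted p = 0.000283) for TLSMGC against TLSMG, the largest rise of a member there. Without TLSMG replicate 2 the difference of Rpl10a, TLSMG minus 96h, was -0.29 (adjusted p = 0.00887).

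Rpl12, a protein at the base of the stalk, was tightly grouped in 96h at 2939, 2946 and 2912 TPM and fell to 2090, 2118 and 2247 in TLSMG. The difference was -0.45 ± 0.05 (adjusted p = 1.94e-05). Rpl28 fell in Gastruloid, where its libraries held 1695, 1712 and 1703 TPM against 1927, 1924 and 1938 in 96h, with no overlap. That difference was small (-0.18 ± 0.05, adjusted p = 0.0139) and missed the threshold after median-of-ratios scaling (-0.19, adjusted p = 0.0547). In TLSMG Rpl28 was lower still than in 96h, by -0.40 (adjusted p = 3.17e-05), at 1425, 1423 and 1527 TPM.

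Rpl39, which lines the exit tunnel for the nascent chain, was 1 of the 3 members higher in TLSMG than in 96h. Its levels were 928, 998 and 980.2 TPM in 96h, 1173, 1384 and 1227 in Gastruloid, and 1229, 1139.6 and 1242 in TLSMG. They were 1363, 1347 and 1366 in TLSMGC and 1321, 1322 and 1311 in TLSMGCL. All 12 libraries collected at 120 h were above the 3 from 96 h. The differences from 96h were 0.38 in Gastruloid, 0.31 in TLSMG, 0.49 in TLSMGC and 0.44 in TLSMGCL (adjusted p = 0.00017, 0.000658, 1.91e-05 and 4.6e-05). After median-of-ratios scaling the difference in TLSMG was 0.13 (adjusted p = 0.143) and the others stayed called.

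**Figure D3:**
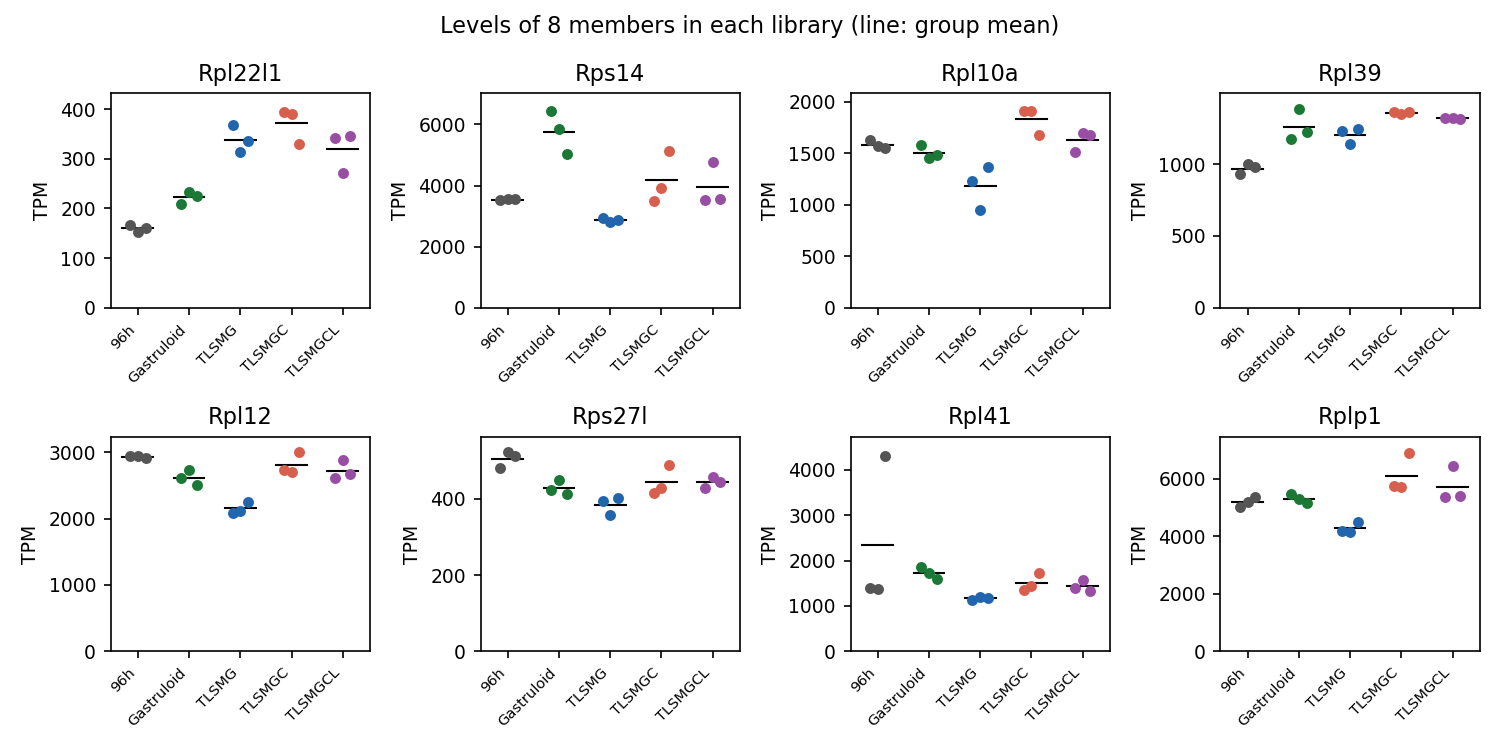
TPM (y axis, from 0) of 8 members in each of the 15 libraries, by group (x axis), with the group mean as a line. Rpl22l1 and Rpl39 are lowest in 96h, Rps14 is highest in Gastruloid, Rpl10a, Rpl12, Rps27l and Rplp1 are lowest in TLSMG, and Rpl41 has 1 library in 96h at 4299.9 TPM beside 1387 and 1371.

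The stalk, through which translation factors are recruited to the 60S subunit, holds Rplp0 and copies of Rplp1 and Rplp2, and Rplp1 was the most abundant member. Rplp1 had 5032, 5184 and 5369 TPM in 96h, 5479, 5293 and 5163 in Gastruloid, and 4193, 4145 and 4487 in TLSMG. It had 5738, 5716 and 6898 TPM in TLSMGC, so that TLSMG was below each of the 3 groups without overlap. All 3 stalk genes were lower in TLSMG than in Gastruloid (-0.33 for Rplp0, -0.31 for Rplp1 and -0.26 for Rplp2), and all 3 were higher in TLSMGC than in TLSMG (0.49, 0.51 and 0.33). With the GC and length correction Rplp0 alone of the 3 was still called against Gastruloid (-0.29, adjusted p = 0.0302), with Rplp1 at -0.16 (adjusted p = 0.055) and Rplp2 at -0.16 (adjusted p = 0.0937), while all 3 were called in TLSMGC against TLSMG. Rplp0 was also higher in TLSMGC (0.39, adjusted p = 0.00343) and TLSMGCL (0.34, adjusted p = 0.00846) than in 96h.

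Rpl5 and Rpl11 form, with the 5S rRNA, the particle that can bind MDM2 and stabilise p53. Rpl5 had 1253, 1453 and 1286 TPM in 96h, 1492, 1165 and 1224 in TLSMG, and 1745, 1739.9 and 1869.5 in TLSMGC. TLSMGC was above both without overlap, while TLSMG and 96h overlapped. Rpl5 was higher in TLSMGC than in TLSMG (0.47, adjusted p = 0.00388) and Rpl11 was not called there (0.05, adjusted p = 0.735). Rpl11 was higher in Gastruloid than in 96h (0.29, adjusted p = 0.0315), a call that was lost after median-of-ratios scaling (0.28, adjusted p = 0.0876). Neither gene was called in TLSMG against 96h or against Gastruloid as deposited or after median-of-ratios scaling, but with the GC and length correction Rpl5 was lower in both (-0.38, adjusted p = 0.0369, and -0.43, adjusted p = 0.0415).

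The pair Rpl22 and Rpl22l1 included the tested member with the widest range of group means. Rpl22 binds RNA and can repress its paralogue, and Rpl22l1 (3:28805436-28807424, plus strand, mm10) can take its place in the ribosome. Rpl22l1 had 168, 153 and 161 TPM in 96h, 208, 234 and 225 in Gastruloid, and 367, 313 and 336 in TLSMG. It had 395, 390.5 and 329.7 TPM in TLSMGC and 342, 272 and 347 in TLSMGCL. All 12 libraries of 120 h lay above those of 96 h, and Gastruloid lay below the 3 Matrigel groups without overlap. The highest group mean was 2.32 times the lowest. The differences from 96h were 0.47 in Gastruloid, 1.07 in TLSMG, 1.20 in TLSMGC and 0.99 in TLSMGCL (SE 0.10 each, adjusted p = 0.00182, 1.22e-06, 5.37e-07 and 3.58e-06), and TLSMG exceeded Gastruloid by 0.61 (adjusted p = 0.000577). These calls held after median-of-ratios scaling, at 0.46, 0.89, 1.20, 1.02 and 0.43. Rpl22 had group means of 485 TPM in 96h, 429 in Gastruloid, 467 in TLSMG, 526 in TLSMGC and 505 in TLSMGCL, and was called in none of the 7 comparisons as deposited. After median-of-ratios scaling Rpl22 was higher in TLSMGC than in TLSMG (0.35, adjusted p = 0.0151). The difference between the paralogues was not tested.

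Rps27 and Rps27l had estimates of opposite sign in Gastruloid against 96h, and the difference between the paralogues was not tested. Rps27l, a target of p53, had 481, 522 and 513 TPM in 96h and 423, 449 and 412 in Gastruloid, without overlap. Rps27 had 3217, 3229 and 3196 TPM in 96h and 3863, 4183 and 3600.0 in Gastruloid, also without overlap. Rps27l was lower (-0.24, adjusted p = 0.0118, and -0.25 with adjusted p = 0.0346 after median-of-ratios scaling). Rps27 was higher (0.27, adjusted p = 0.00884, and 0.26 with adjusted p = 0.0508 after scaling). In TLSMG against 96h Rps27l was lower by -0.40 (adjusted p = 0.000332), and Rps27 was at -0.17 (adjusted p = 0.0692). The call of Rps27l, TLSMGCL minus 96h (-0.19, adjusted p = 0.0388), was lost without 96h replicate 2, 96h replicate 3, TLSMGCL replicate 1 or TLSMGCL replicate 3, with adjusted p from 0.0823 to 0.123, without a minimum TPM (adjusted p = 0.0681), and after median-of-ratios scaling (-0.15, adjusted p = 0.173).

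Rpl7l1, a Rpl7 homologue found in ribosome assembly intermediates, was steady at group means of 156 to 172 TPM and was called in none of the 7 comparisons as deposited. Rpl7 itself was higher in TLSMGC and TLSMGCL than in 96h (0.25 and 0.22, adjusted p = 0.00237 and 0.00519). Rpl36al had means of 462 to 558 TPM and passed the threshold as deposited in 1 of the 7 comparisons, as higher in TLSMGC than in TLSMG (0.27, adjusted p = 0.00689). Rpl36a varied within every group, for instance at 934, 909.5 and 1328 TPM in TLSMG, and was called in none (SE 0.20).

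Rpl3l, Rpl10l and Rpl39l, which are known from striated muscle and testis, were near the lower limit. Rpl3l was listed at 0 in 14 libraries and at 0.224 TPM in 96h replicate 3, beside 1577 TPM or more of Rpl3 in every library. Rpl10l reached at most 1.56 TPM and its group means ran from 0.0764 in TLSMGC to 1.25 in Gastruloid. Rpl39l was listed at 0 in the 3 libraries of 96h and had 2.22, 1.73 and 1.64 TPM in Gastruloid, above its 9 values in the Matrigel groups, which were at most 0.851 TPM. In the fit without a minimum, Rpl39l was higher in Gastruloid (1.51, adjusted p = 1.1e-05), TLSMG (0.74, adjusted p = 0.00217) and TLSMGCL (0.58, adjusted p = 0.0118) than in 96h, on a log2(TPM + 1) scale that is dominated by the added 1 at such levels. There Rpl10l was higher in Gastruloid than in 96h (0.67, adjusted p = 0.00931), and both Rpl10l (-0.82, adjusted p = 0.00294) and Rpl39l (-0.48, adjusted p = 0.0314) were lower in TLSMGC than in TLSMG.

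The 4 members annotated as processed pseudogenes had means of 17.7 TPM (Rpl32l), 189.6 (Rps12l1), 199.7 (Rpl6l) and 208 (Rps4l) over the 15 libraries. How reads that also match the intron-bearing genes of the same protein were divided is not given in the sources used here, so these values are uncertain. Rps4l (6:148354656-148355598, plus strand, mm10) had 230.1, 249 and 257 TPM in 96h, 171, 171 and 204 in TLSMGC and 186, 193 and 175 in TLSMGCL. TLSMGC and TLSMGCL lay under 96h without overlap, at -0.43 and -0.41 (adjusted p = 0.000664 and 0.00105). TLSMG, in Matrigel without added CHIR, also lay under 96h without overlap, at 191.9, 188.4 and 198.8 TPM. Gastruloid overlapped 96h, at 210.9, 240.3 and 248.2 TPM. Rps4x, the partner of Rps4l by name, was higher in TLSMGC and TLSMGCL than in 96h (0.26 and 0.29, adjusted p = 0.000938 and 0.000559). Its levels were 3763, 3669.5 and 3732 TPM in 96h and 4519.5, 4279.7 and 4620.2 in TLSMGC. Rpl32l was higher in TLSMGCL than in 96h (0.52, adjusted p = 0.00383), at 20.7 ± 0.316 TPM against 14.1 ± 0.807 (SD, 3 libraries each). Rpl32, from which Rpl32l takes its name, was not called there (0.10, adjusted p = 0.303). Rpl32l also lay above 96h without overlap in Gastruloid (21.9, 17.4 and 16.6 TPM) and TLSMGC (17.1, 16.2 and 20.8). In TLSMG it overlapped 96h (19.2, 14.5 and 17.4 TPM).

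Members with known mouse developmental mutants were examined as a set. They were Rpl38 (the Tail-short locus, with changes of axial identity), Rpl24 (Belly spot and tail), Rpl27a (sooty foot ataxia), Rps19 and Rps20 (dark skin mutants), and Rps7. Rpl38 had 1781, 1851 and 1819 TPM in 96h and 1961, 1964 and 1868 in Gastruloid. It had 1609, 1579.6 and 1697 TPM in TLSMG and 2085, 2039 and 2309 in TLSMGC. TLSMG was the lowest group without overlap, and TLSMGC lay above the rest of these 4. Rpl38 was lower in TLSMG than in Gastruloid (-0.25, adjusted p = 0.00847) and higher in TLSMGC than in TLSMG (0.40, adjusted p = 0.000294). Of the 6 genes, 5 were lower in TLSMG than in Gastruloid and 5 were higher in TLSMGC than in TLSMG, the exception both times being Rps20. Of all 85 members 52 were lower and 68 higher in these contrasts, beside 7.87% and 10.4% of all genes, and nothing particular to the 6 is read from their counts. Rps20 varied within groups, at 509, 679 and 742 TPM in TLSMG and 979, 689 and 777 in TLSMGC, and was called in none of the 7 comparisons as deposited; after median-of-ratios scaling it was higher in TLSMGC than in TLSMG (0.52, adjusted p = 0.0491).

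Across the 15 libraries most members kept to a common course. The correlation of a member's TPM with the summed TPM of the other members had a median of r = 0.79 over the 85 tested and was at least 0.5 for 70, a description over 15 libraries that share their scaling. It was below 0 for Rpl7l1 (-0.52), Rpl22l1 (-0.07) and Rps25 (-0.04), and highest group means were at most 1.5 times the lowest except in Rpl22l1, Rpl41, Rps14 and Rpl10a. The mean within-group coefficient of variation had a median of 5.1%, and the median ratio of the highest to the lowest group mean was 1.27. TLSMG was the lowest group for 68 of the 85 members and TLSMGC the highest for 40, and the same was not counted over all genes tested. The order of the members by level was nearly the same in all groups, with Spearman rho from 0.972 to 0.994 over the 10 pairs of groups.

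**Figure D4:**
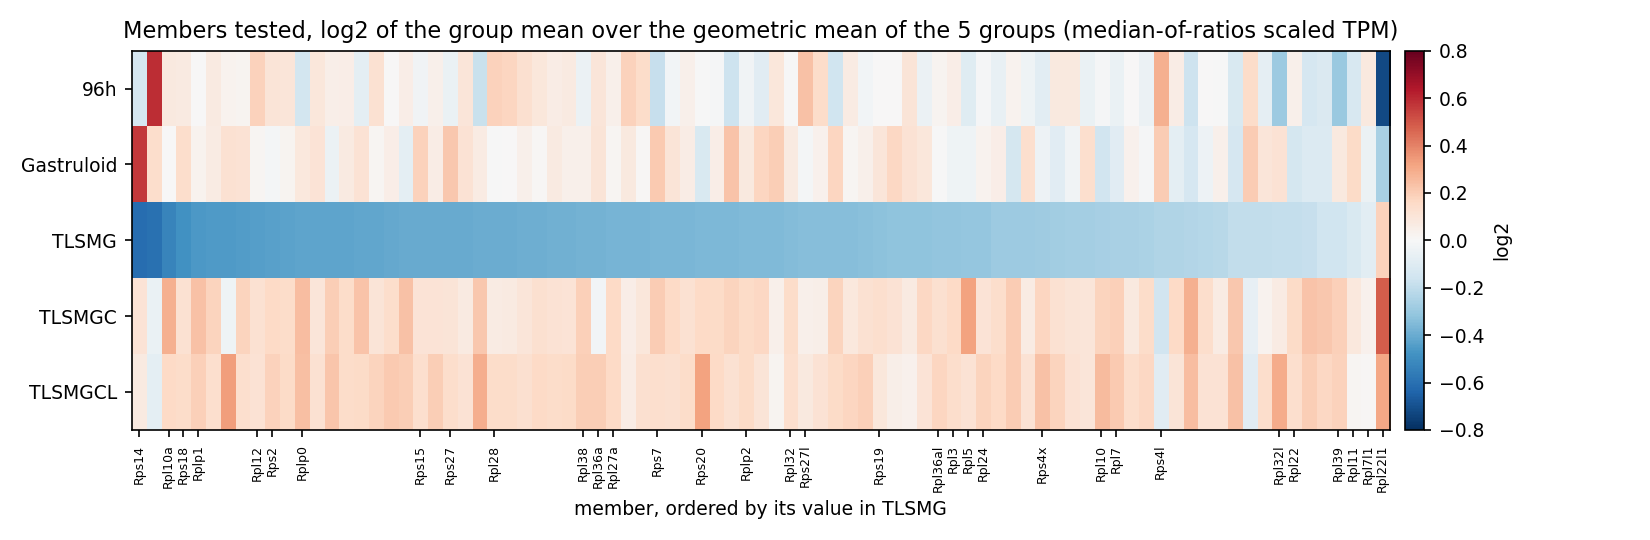
Log2 of each group mean over the geometric mean of the 5 groups for the 85 members tested (columns, ordered by their value in TLSMG, with only the members named by rule labelled), on median-of-ratios scaled TPM; blue is lower and red higher. The TLSMG row is below 0 for every member but Rpl22l1, whose 96h value is the lowest of its column.

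Rpl41, which encodes the shortest ribosomal protein, was singled out after its values were seen. It had 1387, 1371 and 4299.9 TPM in 96h and between 1121 and 1853 TPM in the other 12 libraries. The 1 high library put the 96h mean at 2353 ± 1686 TPM, and none of the comparisons called the gene as deposited. After median-of-ratios scaling TLSMG was lower than 96h (-0.97, adjusted p = 0.0243), a call that includes that library.

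Other genes of translation were compared with the members as lists, whose counts are to be read beside the shares of all genes. In TLSMGC against TLSMG these were 10.4% higher and 30.5% lower, in TLSMG against Gastruloid 31.5% and 7.87% (19.3% and 18.1% after median-of-ratios scaling), and in Gastruloid against 96h 20.8% and 20.5%. Of 17 translation factors and other TOP mRNAs, 11 were higher and none was lower in TLSMGC against TLSMG (median 0.23). In TLSMG against Gastruloid 7 of the 17 were higher and 3 lower (median 0.02), but 1 and 7 after median-of-ratios scaling (median -0.15). With the GC and length correction 1 was higher and 7 lower in that contrast (median -0.03), beside 10.7% and 9.81% of all genes. In Gastruloid against 96h 7 were lower and 2 higher (median -0.08). Elongation factor Eef2 fell there by 0.65 on the log2 scale (adjusted p = 7.56e-07), from 4356, 4317 and 4319 TPM to 2746, 2706 and 2837, while the median of the ribosomal protein genes was 0.03.

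Of 30 ribosome assembly genes, which act in making and modifying rRNA and in assembling the subunits, 22 were lower and none was higher in Gastruloid against 96h (median -0.43). In TLSMG against Gastruloid 17 were higher and none lower (median 0.38), and 15 and 2 after median-of-ratios scaling (median 0.21). These transcripts are long (median 3174.5 nt), and with the GC and length correction 8 were higher and 1 lower in that contrast (median 0.13), beside 10.7% and 9.81% of all genes. The ribosomal protein genes had their median at -0.24 in the same contrast, -0.41 after scaling and -0.16 with the correction. Nucleolin (Ncl) had 366, 403 and 422 TPM in Gastruloid and 837, 767 and 667 in TLSMG, without overlap. In TLSMGC against TLSMG 17 of the 30 were higher (median 0.23). The difference between the lists was not tested.

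**Figure D5:**
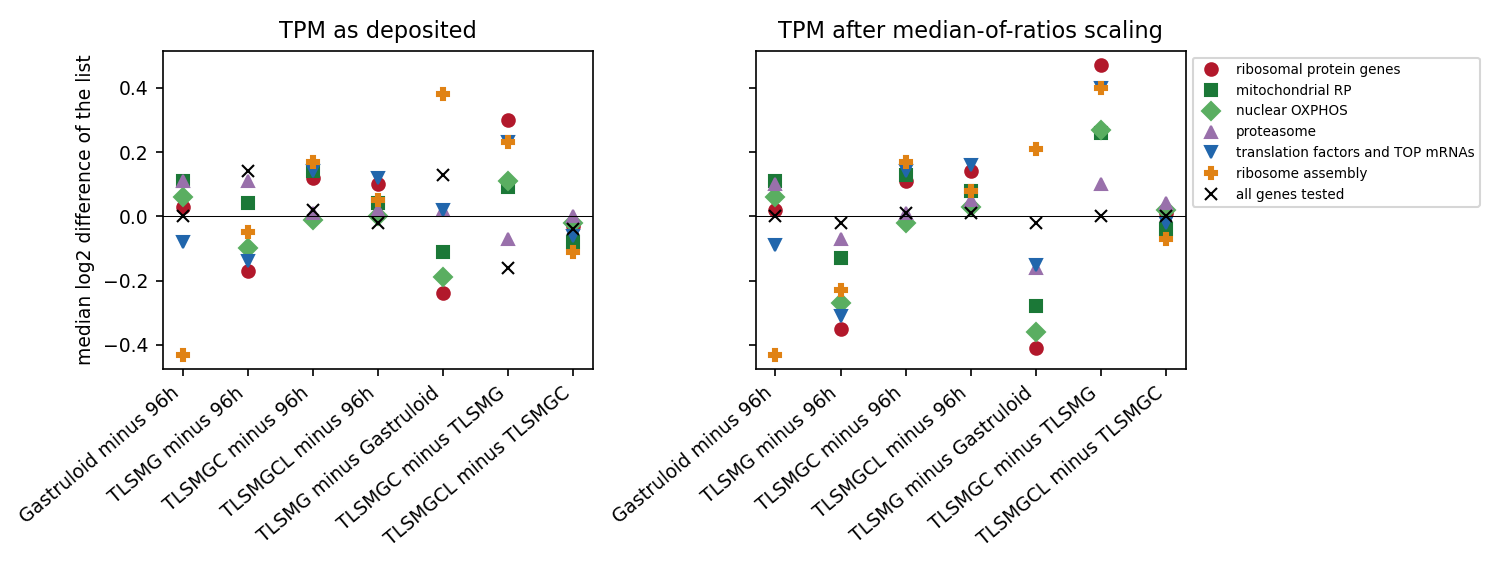
Median log2 difference (y axis) of the ribosomal protein genes and 5 other gene lists in the 7 comparisons (x axis), as deposited (left) and after median-of-ratios scaling (right), with crosses for the median of all genes tested. In Gastruloid minus 96h the ribosome assembly list lies at -0.43 and the ribosomal protein genes at 0.03, and in TLSMG minus Gastruloid they lie at 0.38 and -0.24 as deposited.

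The mitochondrial ribosomal proteins, which are encoded in the nucleus and form a separate ribosome, had 12 of 78 lower and 5 higher in TLSMG against Gastruloid (median -0.11), and 40 and 2 after median-of-ratios scaling (median -0.28). The 86 tested nuclear genes of oxidative phosphorylation had 35 lower and 3 higher (median -0.19), and 57 and none after scaling (median -0.36). The 36 tested proteasome genes had 6 lower and 9 higher (median 0.02), and 12 and 3 after scaling (median -0.16). With the GC and length correction, beside 9.81% of all genes lower and 10.7% higher, 19 mitochondrial ribosomal proteins were lower and 2 higher (median -0.12), 32 and 2 of the oxidative phosphorylation genes (median -0.17), and 6 and 1 of the proteasome genes (median -0.08). Myc, a regulator of ribosome synthesis, had 39.6, 45.1 and 32.5 TPM in 96h, 63.5, 64.1 and 91.8 in TLSMG and 83.4, 86.8 and 82.1 in TLSMGC. It was higher than in 96h in TLSMG, TLSMGC and TLSMGCL (0.88, 1.10 and 0.8, adjusted p = 0.00029, 5.28e-05 and 0.000755). In Gastruloid against 96h Myc was not called (0.33, adjusted p = 0.0925). Mycn fell from 96h in all 4 groups of 120 h, at -1.15 in Gastruloid, -0.93 in TLSMG, -2.11 in TLSMGC and -2.45 in TLSMGCL (log2, largest adjusted p = 2.31e-06).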

How the data were processed

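The authors deposited a gene abundance table for each bulk library and pooled none. Per the file headers these tables hold TPM (the values analysed), FPKM and coverage; the deposited FPKM and coverage served only for relative depth. The submitters' processing notes name cutadapt 2.4, STAR 2.7.3a, StringTie 2.0 and mm10; options and annotation release are not given in the sources used here, and depth in reads is unknown. Rows of 1 gene ID were summed. Biotype, transcript length and GC content came from GENCODE M21. Length and GC content are those of the longest transcript that was protein coding or had the gene's biotype, which need not be the one expressed (Rps15a was taken at 5179 nt). limma 3.58.1 (R 4.3.3; mean trend, moderated variance, two-sided) was fitted to log2(TPM + 1) over all 15 libraries, for genes with a mean of at least 1 TPM, and was tested on simulated data; fold changes on the log2(TPM + 1) scale understate changes of low genes. p-values measure the spread between labelled biological replicates.

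Genes were named by rule: the 2 largest rises and falls per comparison past the threshold without overlap between replicates, 8 paralogue pairs, the 5 most abundant members, developmental mutants, the stalk and the 5S particle; others are named where a count was small or as singled out. Members, rule and lists were chosen with earlier results of these data known. Alternatives were median-of-ratios scaling, a pseudocount of 0.1, no filter, a replicate block, 2-group fits, a GC and length correction, no mitochondrially encoded genes and each library left out. Chosen after seeing the data were size factors from other genes, division by the members' sum, and leaving out the 4 pseudogenes.

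Lists described were translation factors and other TOP mRNAs, ribosome assembly, mitochondrial ribosomal proteins, proteasome, oxidative phosphorylation, Myc and Mycn, and markers of presomitic, somite, neural tube, endothelial and feeder cells. Some items are not reported here.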

Additional observations from a re-analysis of the deposited data

How the results depend on the processing

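With 3 libraries a group, an exact test per gene could not pass 0.05, so calls rest on the spread limma pools over genes and groups. For the 20 differences named for their size, 467 of 480 values under the alternatives kept direction and call, 13 lost the call and none changed sign. Many of these values could not change sign, because their setting leaves the estimate itself as it was. These settings are the replicate block, the 2-group fits, the fit without a filter, and leaving out a library of neither group compared. Rpl30, named for a small count, did change sign in TLSMG against 96h. A pseudocount of 0.1 and leaving out the mitochondrially encoded genes left every member count within 1.5 times. The cause of the changes below was not tested, unless the setting itself sets it, as when fewer libraries enter.

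After scaling by median-of-ratios factors, Gastruloid against 96h had 8 members higher and 3 lower, TLSMG against 96h had 1 higher and 62 lower, and TLSMGC and TLSMGCL against 96h each had 1 lower; with size factors from genes other than the members these counts were 8, 3, 1, 63, 1 and 1. Correcting for GC and length gave 5 higher and 24 lower in Gastruloid against 96h, 62 lower in TLSMG against 96h and 5 higher in TLSMG against Gastruloid. Without the filter 3 were lower in Gastruloid, 1 in TLSMGC and 1 in TLSMGCL against 96h, and 2 in TLSMGC against TLSMG. Fits of only the 2 groups gave 11 lower in Gastruloid and 1 in TLSMGC against 96h. Without the 4 pseudogenes 1 was lower in TLSMGC against 96h. Division by the members' own sum, which by construction removes their common change, gave 19 lower in Gastruloid, 22 higher and 15 lower in TLSMG, 16 and 16 in TLSMGC and 15 lower in TLSMGCL against 96h, 22 higher and 9 lower in TLSMG against Gastruloid, and 10 higher and 18 lower in TLSMGC against TLSMG.

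Leaving out each library in turn gave 9 to 17 higher and 2 to 8 lower members in Gastruloid against 96h, 2 to 4 and 30 to 44 in TLSMG, 20 to 31 and 1 to 4 in TLSMGC, and 12 to 21 and 1 to 5 in TLSMGCL. It gave 1 to 2 higher and 41 to 54 lower in TLSMG against Gastruloid, 61 to 70 higher in TLSMGC against TLSMG, 0 in TLSMGCL against TLSMGC, and 67 to 73 by the F test. The higher calls in Gastruloid against 96h fell to 9 or 10 without 96h replicate 1 or 2 or Gastruloid replicate 1 or 2, the lower calls there to 2 without Gastruloid replicate 1, and the higher calls in TLSMGCL against 96h to 12 without 96h replicate 1. The 2 lower calls in TLSMGC against 96h became 1 without 96h replicate 2 or 3 or TLSMGC replicate 1 or 2, and 4 without TLSMGC replicate 3. The 3 lower calls in TLSMGCL against 96h became 1 without 96h replicate 2 or 3 or TLSMGCL replicate 1, and 5 without TLSMGCL replicate 2. The 1 higher call in TLSMG against Gastruloid became 2 without Gastruloid replicate 2 or TLSMGCL replicate 3. The mean share of TPM in TLSMG then lay between 14.9% and 15.4%. That of 96h lay between 17.3% and 17.6%, that of Gastruloid between 17.9% and 18.4%, that of TLSMGC between 18.3% and 19.4%, and that of TLSMGCL between 18% and 19.0%.

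Replicate numbers are shared by the groups, but nothing in the labels ties equal numbers together: deviations of equally numbered libraries had a mean r of -0.02 over 30 pairs, against 0.01 over 60 unequally numbered pairs, and 1 of 15 libraries correlated best with its own number. With the replicate number as a block, 14 members were higher and 5 lower in Gastruloid, 3 and 37 in TLSMG, 26 and 2 in TLSMGC and 19 and 2 in TLSMGCL against 96h, 1 and 51 in TLSMG against Gastruloid, 68 and 0 in TLSMGC against TLSMG, and 72 differed by the F test.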

Other observations

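Cell type markers describe what the libraries hold beside the ribosomal protein genes. The 12 presomitic and tailbud markers (T, Tbx6, Msgn1 and others) summed to 1724 to 2219 TPM in 96h. At 120 h their sum was 192 to 302 TPM without Matrigel and 256 to 323 with it. With added CHIR in Matrigel the sum was 476 to 607 TPM (TLSMGC) or, with LDN as well, 487 to 558 (TLSMGCL). All 12 were lower in Gastruloid and in TLSMG than in 96h, beside 20.5% and 12.5% of all genes. The somite markers, 10 of 11 tested, had 6 higher and 3 lower in TLSMG against 96h, beside 33.5% and 12.5% of all genes. In TLSMGC against TLSMG these markers had 2 higher and 7 lower, beside 10.4% and 30.5%. Their summed level was 1979 to 2560.0 TPM in 96h, 931 to 1096 in TLSMG and 798 to 886 in TLSMGC, so the sum in TLSMG was under that in 96h while more of the markers were higher than lower. Of 9 tested neural tube markers (Pax6, Sox1, Irx3 and others), 8 were higher in Gastruloid than in 96h, beside 20.8% of all genes. In TLSMGC against TLSMG 7 of them were lower, beside 30.5% of all genes, with summed levels of 214 to 323 TPM in TLSMG and 63.9 to 78.2 in TLSMGC. Among the feeder fibroblast markers 4 of 7 reached a mean of 1 TPM, and their sum ran from 8.9 TPM in 96h to 48.4 in Gastruloid.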
